A study of Homo sapiens with 9 samples.

Results

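Of the 42785 gene symbols counted in SH-SY5Y RNA, 14598 (34.1%) were names built from genomic clones, and the 194 clone-named transcripts with at least 100 raw counts in at least 6 of the 9 libraries are described here. SH-SY5Y is a cell line derived from a human neuroblastoma. RNA was recovered from its lysate on beads coupled to a mouse antibody against DCC (DCC-IP) or a rabbit antibody against Nrp1 (Nrp1-IP), and whole lysate RNA (Input) was sequenced beside them, with 3 libraries in each group. No group carried a genetic change or a drug treatment in the labels, the cells were all of 1 line, and pulldowns with a control antibody were not analysed here. The study's methods state that unlysed cells and nuclei were spun out of the lysate before the pulldown and that the cDNA was amplified with a protocol written for single cells.

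DCC is the receptor for the guidance cue Netrin-1 and Nrp1 is a receptor for Sema3A, and the study asked which RNAs come down with each. A clone name is a placeholder. It gives the bacterial artificial chromosome or sequence record from which a locus was first annotated, followed by a serial number, and says nothing of function. RP11 stands for a large human clone library, CTA to CTD for the libraries of another institute, and AC, AL and AP for records of sequenced clones. Loci with such names are mostly long non-coding RNAs, transcripts antisense to a coding gene, processed pseudogenes and read-through transcripts. Long non-coding RNAs are transcripts without a long open reading frame, and processed pseudogenes are copies of an mRNA set back into the genome, whose reads can be hard to tell from those of the parent gene.

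None of the 194 symbols was a primary symbol in the RefSeq gene list (GRCh38.p14) or in the list of gene names used here, and 1 was a RefSeq synonym. CTC-534A2.2 matched SHLD3, a subunit of the shieldin complex that acts in DNA double-strand break repair. It had DCC-IP counts of 0, 249 and 61, Nrp1-IP counts of 252, 245 and 259 and Input counts of 284, 409 and 261. The other 193 matched no entry, so that neither positions nor sequences are given and the class of each locus is not stated. Whether strand was used in the counting is not given in the sources used here. Of the reads handled, 0.195 to 0.517% were set aside as ambiguous between genes and 2.83 to 3.83% as not uniquely aligned. Among the reads kept, some from an overlapping gene on the other strand or from a near-identical copy may still have been counted on a clone-named locus.

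Most clone-named loci gave no reads. Of the 14598, 11135 were at 0 in all 9 libraries and 3463 had at least 1 count. The 194 over the cut were 1.33% of the clone-named symbols, against 6.49% of the 28187 other symbols over the same cut, which gave 1830 genes for comparison. By prefix, 109 were RP11, 24 had another RP number, 25 began with CT, 31 with AC and 5 with AP, and none of the 784 AL and 40 LA16c symbols passed. In all 9 libraries, 118 of the 194 reached 100 counts. The cut was 100 reads and the count of members moved with it, to 277 at 50 reads and 132 at 200. The last ones inside were AC092171.4, AC009506.1 and RP5-827C21.6, whose sixth highest counts were 100, 101 and 101. The nearest outside were RP11-47A8.5, RP11-677M14.3 and RP1-212P9.2, with 99, 99 and 95. Since members were chosen by their counts, their levels are descriptions. The cut can be met by the Nrp1-IP and Input libraries alone, so it lets in members that are low in DCC-IP.

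Each library held 8838296 to 11055895 gene counts, and reads that HTSeq assigned to no counted feature made up 48.7 to 55.8% of those it handled. Whether such reads lay between genes, in introns or on the other strand is not given. Some features of the libraries touch every value below. DCC-IP replicate 1 detected the fewest genes (6652 of the 42785, against 8169 to 12240 in the other libraries) and had 12 of the 194 members at 3 counts or fewer, where DCC-IP replicate 3 had 1 and the other libraries 0. MAP1B, which encodes a microtubule-associated protein, held 47.4% ± 6.20 (SD, n = 3) of the DCC-IP gene counts, against 1.58 to 2.44% in the Nrp1-IP libraries and 1.87 to 2.25% in the Input ones. DCC mRNA was listed at 0 in all 9 libraries and NRP1 mRNA had DCC-IP counts of 0, 26 and 23, Nrp1-IP counts of 55, 83 and 36 and Input counts of 198, 320 and 234, so the receptors' own transcripts gave no check of the pulldowns. The summed level of 15 sympathoadrenal neuroblastoma markers was 1323 to 4109 CPM (counts scaled to one library size, with TMM factors) in the DCC-IP libraries, against 1069 to 1399 for Nrp1-IP and 313 to 522 for Input. Of these markers 4, 6 and 7 stood above a floor of 3 counts in every library of the 3 groups, and TH was at 0 in all 9. ISL1, a transcription factor of sympathetic neurons, made up most of this sum, with DCC-IP counts of 35114, 27786 and 17501, while in DCC-IP replicates 1 and 2 PHOX2A, HAND2, CHGA, STMN2, GAP43 and MYCN had at most 1 count. Fibroblast markers summed to 0.905 to 8.11 CPM, with COL1A1 at 29, 40 and 34 counts in Input, epithelial markers to at most 1.11 CPM, and blood and hepatocyte markers to at most 0.113 CPM.

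The clone-named transcripts took a larger part of the reads in Nrp1-IP than in the other groups. Their share of gene counts was 2.55, 2.37 and 3.04% for DCC-IP, 6.59, 6.69 and 6.71% for Nrp1-IP and 4.59, 4.28 and 4.85% for Input. The group means were 2.65% ± 0.348, 6.66% ± 0.0663 and 4.57% ± 0.287 (SD, n = 3), and no library of one group reached the range of another. With MAP1B left out of the totals, the shares became 5.04% ± 0.0816 for DCC-IP, 6.81% ± 0.0490 for Nrp1-IP and 4.67% ± 0.285 for Input. The DCC-IP share then lay between the others, with its lowest library and the highest Input library both at 4.94%. The 5 members with the most reads held 31.6% of member counts for DCC-IP, 52.9% for Nrp1-IP and 36.3% for Input. Without them the shares of all gene counts were 1.81% ± 0.218, 3.14% ± 0.0772 and 2.92% ± 0.342. Input replicate 3, at 3.31%, then lay above every Nrp1-IP library (3.08 to 3.23%). The share with both MAP1B and these 5 left out was not taken, so the order of groups in the remaining members is not settled.

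**Figure D1:**
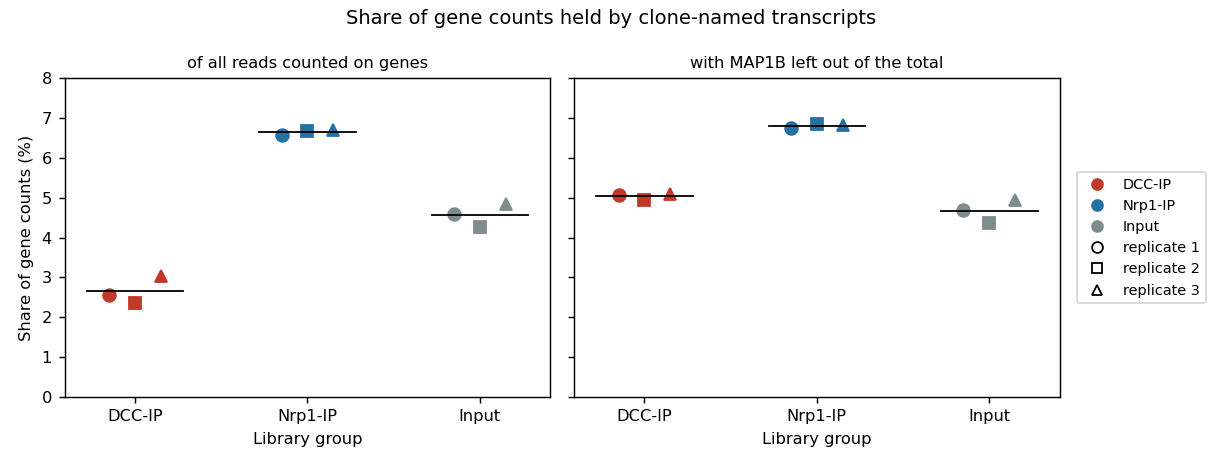
Share of the reads counted on genes that fell on the 194 clone-named transcripts (y axis, percent) in each library of DCC-IP, Nrp1-IP and Input, of all reads (left) and with MAP1B left out of the total (right). Points are libraries, with the shape giving the replicate number, and lines are means of 3. The 3 Nrp1-IP libraries lie at 6.59 to 6.71% on the left, above all others, and the DCC-IP mean moves from 2.65 to 5.04% between the panels.

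Counts were not divided by length, so the order below is one of reads, not of molecules. RP11-746M1.1 had DCC-IP counts of 31919, 27837 and 50950, Nrp1-IP counts of 146614, 167539 and 177913 and Input counts of 75538, 56439 and 73925. It ranked 4 to 6 among all genes by counts in the Nrp1-IP libraries, 12 to 27 in DCC-IP and 19 to 32 in Input, and the 3 groups did not overlap. The second by reads, given here without its symbol, stood at 903 ± 241 CPM for DCC-IP, 7805 ± 1089 for Nrp1-IP and 4611 ± 1997 for Input. CTD-2369P2.2, the third, had 466 ± 443, 4525 ± 708 and 2100 ± 696 CPM (SD, n = 3) in the same order.

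Not every abundant member was low in DCC-IP. RP11-252A24.7 stood at 2218 ± 626 CPM for DCC-IP, 1601 ± 280 for Nrp1-IP and 2402 ± 357 for Input, and RP11-349A22.5 at 1262 ± 512, 898 ± 233 and 889 ± 362 CPM. Over all 194, the median of the mean levels was 35.9 CPM for DCC-IP, 41.6 for Nrp1-IP and 49.2 for Input. The highest mean fell in Input for 92 members, in Nrp1-IP for 58 and in DCC-IP for 44. Members under 10 CPM numbered 28 for DCC-IP, 8 for Nrp1-IP and 6 for Input. Their spread was widest in DCC-IP, with a median coefficient of variation over 3 libraries of 51.6%, against 21.5% in Nrp1-IP and 31.8% in Input, values that the 1830 other genes over the cut also had (53.0, 22.0 and 36.9%).

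Between the receptors, 14 clone-named transcripts were higher in Nrp1-IP and 2 were higher in DCC-IP (edgeR quasi-likelihood test on the 6 libraries, Benjamini-Hochberg adjusted p under 0.05 over all 6439 genes tested, the call used throughout). These are 7.22 and 1.03% of the members. Over all genes tested, 2.56% were called higher and 1.09% lower in Nrp1-IP, and of the 1830 other genes over the same cut 7.87 and 2.84%. At an unadjusted p under 0.05 there were 70 of the 194 members, 604 of the 1830 and 1118 of all 6439. The study's methods state that experiments had 3 or more independent biological replicates, with exceptions named. The labels do not say what separates the replicates here, such as culture or day, so p-values measure the spread between these samples. A pulldown compares RNA recovered relative to the rest of the library, and more of a transcript cannot be told apart from less of the others.

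AC016747.3 had DCC-IP counts of 369, 232 and 335, Nrp1-IP counts of 6413, 7646 and 9165 and Input counts of 2608, 2448 and 2000. Every Nrp1-IP library lay above every Input library, and every Input library above every DCC-IP library. On the log2 scale its Nrp1-IP level was 4.46 above its DCC-IP level (SE 0.41, adjusted p = 0.00132), the smallest adjusted p of the members. RP11-565F19.2 showed the same order of groups, with DCC-IP counts of 458, 737 and 562, Nrp1-IP counts of 7992, 8582 and 8309 and Input counts of 2498, 2794 and 1575, and a log2 fold change of 3.68 (SE 0.39, adjusted p = 0.00239).

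Of the 12 members with the most reads, 5 were called between the receptors, each higher in Nrp1-IP. Abundant genes were often called here. Of the 251 other genes with a mean above 500 CPM in the 6 libraries, 34.3% were called higher and 7.97% lower. The member with the second most reads had DCC-IP counts of 7234, 14676 and 10346 against Nrp1-IP counts of 96307, 81757 and 91662, with a log2 fold change of 2.92 (SE 0.34, adjusted p = 0.00255). For RP11-746M1.1, with the counts given above, the log2 fold change was 2.05 (SE 0.26, adjusted p = 0.00303). RP11-137H2.6 had DCC-IP counts of 1512, 1286 and 3649 and Nrp1-IP counts of 10645, 13687 and 16167 (log2 fold change 2.60, SE 0.38, adjusted p = 0.00631). A further member, also given without its symbol, had DCC-IP counts of 974, 856 and 2319 and Nrp1-IP counts of 6672, 7111 and 12826 (2.60, SE 0.40, adjusted p = 0.00776). These 4 transcripts, AC016747.3 and RP11-565F19.2 were the 6 that passed the test whichever library was left out.

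The other called transcripts passed in fewer of these fits. RP11-513I15.6 had DCC-IP counts of 2894, 2124 and 1865 and Nrp1-IP counts of 18854, 11414 and 12528 (log2 fold change 2.45, SE 0.43, adjusted p = 0.0148), and passed in 3 of the 6 fits that left out 1 library. AC087645.1 (1.89, SE 0.33, adjusted p = 0.0149) passed in 4, and CTD-2369P2.2 (3.19, SE 0.60, adjusted p = 0.0203) and RP5-1085F17.3 (1.70, SE 0.35, adjusted p = 0.0311) in 3 each. CTD-2369P2.2 had 8605, 3455 and 2158 counts in DCC-IP, the first of them well above the others, and 47547, 57220 and 51423 in Nrp1-IP. The remaining 4 called higher fell outside the naming rule and are named after their values were seen. RP11-4O1.2 had DCC-IP counts of 1, 20 and 4 against Nrp1-IP counts of 455, 352 and 567 and 156, 270 and 112 in Input. Its level in DCC-IP rests on few reads, and it passed the cut through its Nrp1-IP and Input libraries alone. RP11-378J18.8 had 28, 141 and 34 counts against 1150, 649 and 852, RP11-977G19.12 had 383, 146 and 230 against 1529, 2001 and 2302, and RP5-935K16.1 had 3424, 1318 and 3043 against 7954, 12890 and 17208.

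The 2 transcripts higher in DCC-IP were AC084018.1 and AC132872.2. AC084018.1 had DCC-IP counts of 6412, 2720 and 2249, Nrp1-IP counts of 588, 701 and 566 and Input counts of 616, 580 and 692 (log2 fold change -2.85, SE 0.58, adjusted p = 0.0277). Every DCC-IP library stood above those of both other groups. AC132872.2 had DCC-IP counts of 1473, 636 and 1767, Nrp1-IP counts of 291, 284 and 202 and Input counts of 329, 170 and 344 (-2.41, SE 0.54, adjusted p = 0.0433). They passed in 2 and 1 of the 6 fits that left out a library.

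**Figure D2:**
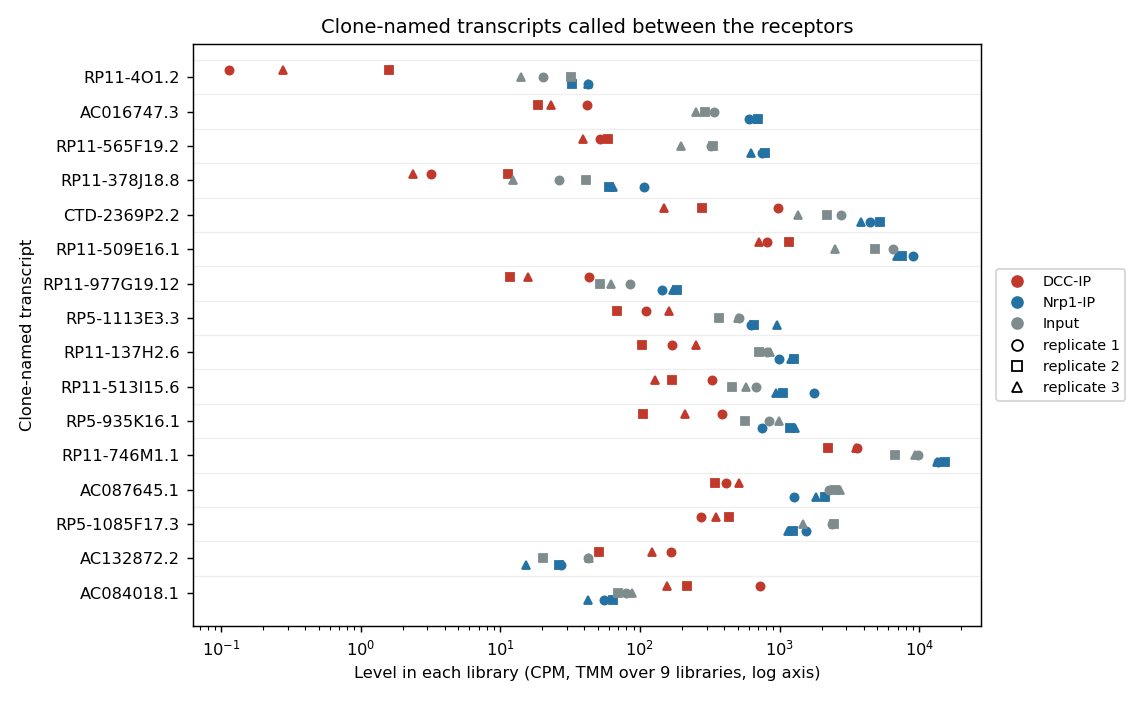
Levels of the 16 clone-named transcripts called between the receptors (x axis, CPM on a log axis with TMM scaling over 9 libraries), 1 point per library, with colour for the group and shape for the replicate number. The upper 14 have all Nrp1-IP points to the right of all DCC-IP points, and AC132872.2 and AC084018.1 at the bottom have them to the left.

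Counting libraries in place of a test, 74 members (38.1%) had all 3 Nrp1-IP levels above all 3 DCC-IP levels and 21 (10.8%) had them below. The shares over all genes tested were 15.6 and 10.9%, and over the 1830 other genes 25.8 and 14.5%. The cut lets in genes that are low in DCC-IP, among the members and the 1830 alike, so these shares and the medians are descriptions. The median log2 fold change of the members was 0.37, against -0.27 over all genes tested and -0.15 over the 1830 genes. The distance between the members' median and that of all genes was 0.64, and it was 0.62 with RLE size factors, 0.75 with library size only and 0.70 with MAP1B removed. It was 0.39 with no filter, 0.36 without DCC-IP replicate 2 and 0.35 without DCC-IP replicate 3. Here and below, these distances are to all genes tested, which include many under the cut. The median of the 1830 genes lay nearer to that of the members, and the distance to it was not taken in the other settings. The calls were unevenly spread over read levels, in classes set after the values were seen. Above 500 CPM (mean of the 6 libraries), 8 of 14 members were called, each higher, where 34.3% of 251 other genes were called higher and 7.97% lower. Between 100 and 500 CPM, 3 of 39 members (7.69%) were higher and 1 lower (2.56%), where 11.2% of 394 other genes were higher and 4.57% lower. Below 100 CPM, 3 of 141 were higher and 1 lower, and of the 1185 other genes 1.18% were called in each direction.

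**Figure D3:**
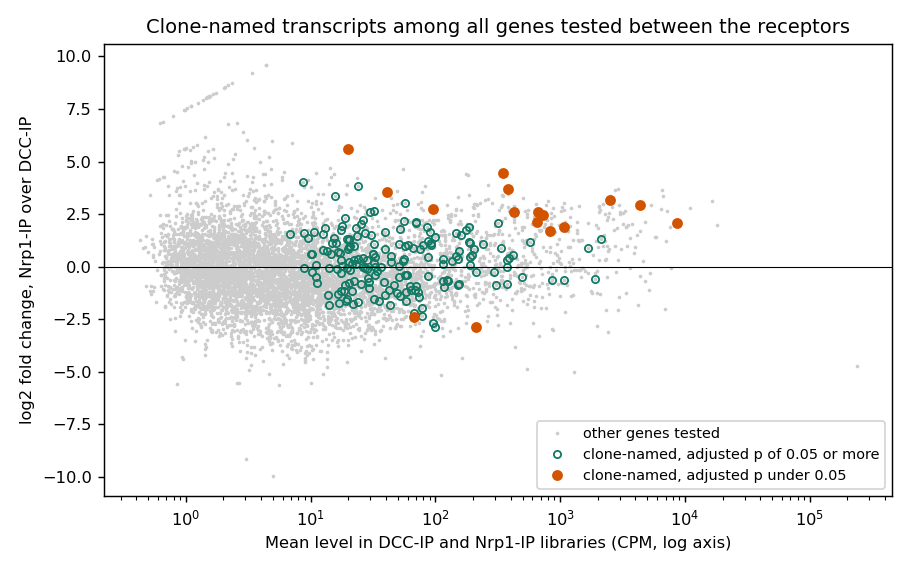
Log2 fold change between the receptors (y axis, positive for Nrp1-IP) against mean level in the 6 libraries (x axis, CPM, log axis) for the 6439 genes tested. Grey dots are other genes, open circles the clone-named transcripts that were not called and filled circles the 16 called, of which 8 lie above 500 CPM and 2 lie below 0.

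The number of calls between the receptors depended on which library was present. Higher and lower calls were 25 and 0 without DCC-IP replicate 1, 13 and 3 without replicate 2, and 28 and 3 without replicate 3, where all genes gave 225 and 29, 130 and 70, and 290 and 56. Leaving out Nrp1-IP replicate 1, 2 or 3 gave 7, 6 and 8 higher calls and 0 lower in each case (69 and 5, 67 and 10, and 98 and 16 over all genes), with 47, 44 and 49 members at an unadjusted p under 0.05 in these edgeR fits. Without DCC-IP replicate 1 that number was 87. DESeq2 on all 6 libraries called 41 and 10 members, and 386 and 310 genes in all.

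DCC-IP over Input gave 1 clone-named transcript higher and 10 lower, or 0.515 and 5.15%, where 1.46% of all 6223 genes tested were called higher and 3.52% lower. Of the 1830 other genes over the cut, 3.93% were higher and 10.7% lower, so calls leaned to the lower side in all 3 sets. With the replicate number as a block, 7 members were higher and 43 lower, and all 11 calls were kept, while calls over all genes went from 91 and 219 to 238 and 477. With library size as the only scaling the split was 4 higher to 7 lower, and with MAP1B removed from the counts it was 0 to 2, with 54 members at an unadjusted p under 0.05. Over all genes these splits were 141 to 167 and 26 to 47. The Input libraries serve both pulldowns here, and the DCC-IP libraries serve both comparisons in which they appear, so the 3 comparisons are not independent of each other.

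AC016747.3 had the lowest level relative to Input among the called members, with the counts given above and a log2 fold change of -3.33 (SE 0.47, adjusted p = 0.00884). AC087645.1 had DCC-IP counts of 3677, 4272 and 7465, Nrp1-IP counts of 13532, 22936 and 24493 and Input counts of 17391, 20767 and 21662. Its DCC-IP libraries were the low group (DCC-IP over Input -2.40, SE 0.35, adjusted p = 0.00884), and in scaled levels the Nrp1-IP libraries also lay below the Input ones. RP5-1085F17.3 had DCC-IP counts of 2437, 5451 and 5101 against Input counts of 18398, 20556 and 11618 (-2.40, SE 0.40, adjusted p = 0.0148). CTD-2514K5.2 had DCC-IP counts of 480, 388 and 518, Nrp1-IP counts of 1583, 1554 and 1726 and Input counts of 2548, 1611 and 1923 (-2.56, SE 0.46, adjusted p = 0.0197).

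The other 6 lower members included the one with the second most reads (-2.21, SE 0.42, adjusted p = 0.0248), RP11-565F19.2 (-2.39, SE 0.46, adjusted p = 0.0265) and 2 members highest in Input. RP11-611O2.5 had DCC-IP counts of 1642, 1947 and 1485, Nrp1-IP counts of 3143, 1881 and 2916 and Input counts of 6151, 5932 and 3560, so Input alone was high. RP11-841O20.2 had 1991, 4095 and 5880, then 4686, 6472 and 6949, then 9602, 11595 and 13311 counts in the 3 groups, again highest in Input. RP11-137H2.6 and RP11-746M1.1 were also lower in DCC-IP than in Input, with adjusted p = 0.0399 and 0.0406 and log2 fold changes of -2.02 and -1.34. The single member higher in DCC-IP than in Input was RP11-77H9.5, with DCC-IP counts of 3292, 1321 and 571, Nrp1-IP counts of 380, 257 and 221 and Input counts of 102, 131 and 47 (3.86, SE 0.84, adjusted p = 0.0371). Its DCC-IP counts ranged widely, yet the lowest stood above the highest of the other groups.

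Non-overlap and medians are descriptions here, since the cut lets in members that are low in DCC-IP, and the 1830 genes were chosen by the same cut. In 88 members (45.4%) all DCC-IP levels were below all Input levels and in 18 (9.28%) above, where the shares over all genes tested were 18.1 and 15.2% and over the 1830 other genes 31.4 and 20.5%. The members' median log2 fold change was -0.89, against 0.16 over all genes and -0.28 over the 1830. The distance to the median of all genes was -1.05, and -1.02, -1.07 and -1.01 with RLE, library size only and MAP1B removed. It was -0.48 with no filter, -0.58 without DCC-IP replicate 2 and -0.49 without DCC-IP replicate 3. The median of the 1830 genes again lay nearer to that of the members. None of the 11 calls passed whichever library was left out. Leaving out DCC-IP replicate 1 or 2 or Input replicate 1 left 0 calls in either direction, although 69, 37 and 48 members had an unadjusted p under 0.05. Over all genes tested, these fits called 0 and 0, 1 and 0, and 1 and 30. Without Input replicate 2 there were 0 higher and 2 lower, without DCC-IP replicate 3 there were 3 and 1, and without Input replicate 3 there were 0 and 11, with 14 and 82, 139 and 67, and 36 and 214 over all genes. DESeq2 on all 6 libraries called 8 and 39 members, and 511 and 521 genes in all.

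Nrp1-IP and Input were closer to each other. Nrp1-IP over Input gave 2 members higher and 6 lower (1.03 and 3.09%), where 1.94% of all 6501 genes tested were higher and 3.03% lower, and of the 1830 other genes 5.30 and 8.25%. With library size as the only scaling the split turned to 14 higher and 3 lower, and with RLE size factors it was 1 and 11. Over all genes the split turned too, from 126 and 197 to 351 and 167 with library size only and 85 and 265 with RLE, so the balance of directions rested on the scaling. The members' median log2 fold change was -0.16, with 0.06 over all genes and 0.04 over the 1830, and its distance to all genes was -0.22. That distance ranged from -0.41 without Input replicate 2 to -0.11 without Nrp1-IP replicate 3 and -0.08 without Input replicate 1, and was 0.03 with no filter. All levels of one group lay apart from the other in 31 members that were higher (16.0%) and 51 that were lower (26.3%) in Nrp1-IP. The shares over all genes tested were 17.7 and 13.8%, and over the 1830 other genes 25.4 and 23.6%.

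The 2 members higher in Nrp1-IP than in Input were the same transcripts that led the comparison of the receptors. RP11-565F19.2 had a log2 fold change of 1.44 (SE 0.29, adjusted p = 0.0344) and AC016747.3 of 1.26 (SE 0.26, adjusted p = 0.0400). Among the lower ones, RP11-538P18.2 had DCC-IP counts of 3169, 1300 and 479, Nrp1-IP counts of 335, 266 and 350 and Input counts of 2516, 1595 and 1594 (-3.06, SE 0.39, adjusted p = 0.0113). Every Nrp1-IP library lay below every Input library, as did DCC-IP replicates 2 and 3. CTC-425F1.4 had Nrp1-IP counts of 224, 356 and 948 and Input counts of 4207, 2897 and 17279 (-4.61, SE 0.88, adjusted p = 0.0303), with replicate 3 the highest in both groups. RP11-770J1.5, one of the 12 members with the most reads, had Nrp1-IP counts of 10007, 7141 and 7084 and Input counts of 25363, 17295 and 21082 (-1.85, SE 0.34, adjusted p = 0.0295).

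The last 3 were nearer the threshold. RP11-841O20.2 (-1.39, SE 0.27) had an adjusted p of 0.0326, CTD-2636A23.2 (-2.84, SE 0.61) of 0.0430 and RP1-257A7.5 (-2.08, SE 0.45) of 0.0431. None of the 8 calls passed whichever library was left out, and leaving out Nrp1-IP replicate 1, 2 or 3 left 0 calls in either direction, with 29, 25 and 31 members at an unadjusted p under 0.05 and 0 and 0, 0 and 7, and 0 and 7 calls over all genes. Without Input replicate 1, 2 or 3 there were 0 and 1, 0 and 4, and 3 and 18 higher and lower calls, with 3 and 74, 36 and 126, and 111 and 330 over all genes. DESeq2 on all 6 libraries called 6 and 22 members, and 374 and 588 genes in all. Over the 3 comparisons, 25 of the 194 members were called at least once and 169 in none. The same count was not taken over the 1830 other genes or over all genes tested. In each comparison and direction, the share called was larger among the 1830 genes than among the members.

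**Figure D4:**
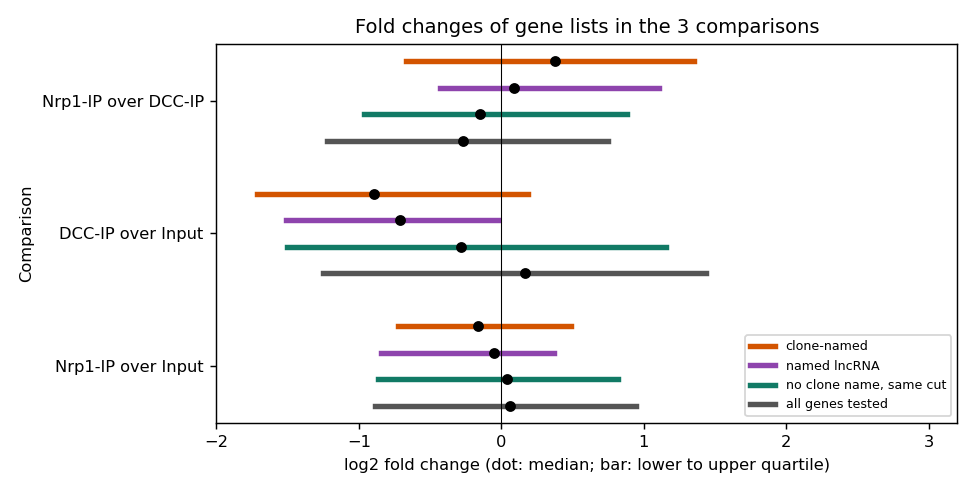
Log2 fold changes in the 3 comparisons for the 194 clone-named transcripts, 30 named long non-coding RNAs and 1830 genes without a clone name over the same count cut, and for all genes tested. Dots are medians and bars run from the lower to the upper quartile. For DCC-IP over Input the dot of the clone-named transcripts lies at -0.89 and that of all genes at 0.16.

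For comparison, 30 long non-coding RNAs with names of their own, with LINC, SNHG or antisense symbols or, in 1 case, KCNQ1OT1, passed the same cut. Between the receptors 2 (6.67%) were higher in Nrp1-IP and 1 (3.33%) in DCC-IP, with a median log2 fold change of 0.09. The shares were 7.87 and 2.84% over the 1830 genes without a clone name, and 2.56 and 1.09% over all genes tested. In DCC-IP over Input 5 were called, each lower (16.7%), with a median of -0.71. There 10.7% of the 1830 genes and 3.52% of all genes tested were lower. In Nrp1-IP over Input 2 were called, each lower (6.67%), with a median of -0.06, beside 8.25% of the 1830 and 3.03% of all. The difference between this list and the clone-named one was not tested. Of the clone-named loci below the cut, 496 were tested between the receptors and 1 was higher in Nrp1-IP. Of 470 in DCC-IP over Input 1 was higher and 1 lower, and of 479 in Nrp1-IP over Input 4 were lower. Over all genes tested, the shares called higher and lower in these comparisons were 2.56 and 1.09%, 1.46 and 3.52%, and 1.94 and 3.03%. The share for genes without a clone name below the cut was not taken.

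Members, like other genes over the cut, varied with the replicate number as well as with the pulldown. In 35 members (18.0%) replicate 1 was the highest library in all 3 groups, where the share over 7628 genes was 5.35% and over the 1830 other genes 12.6%. Replicate 3 was the highest in all groups in 23 members (11.9%), against 13.4% of the 7628 and 12.9% of the 1830, and the lowest in 39 (20.1%), against 7.34 and 19.5%. For replicate 3 the members' shares thus lay near those of the 1830. The pattern was clearest in a few transcripts chosen after their values were seen. RP13-638C3.4 had DCC-IP counts of 47, 114 and 1362, Nrp1-IP counts of 127, 116 and 894 and Input counts of 134, 54 and 1350. AC005523.2 had 69, 86 and 730, then 154, 176 and 840, then 152, 105 and 1219 counts. In both, replicate 3 stood far above the others in every group, and the groups overlapped. What the number marks in the experiment is not given in the labels.

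Members named from the same clone lie on the same stretch of genome, and 11 clones gave more than 1 member, 23 members and 13 pairs in all. In 3 pairs the ratio of the counts stayed within 1.5 times over the 9 libraries, in 7 within 2 times, and in 3 it ranged over more than 10 times. RP11-498C9.16 had 0.338 to 0.417 times the counts of RP11-498C9.15, RP11-192H23.6 had 0.647 to 0.836 times those of RP11-192H23.4, and RP11-1275H24.1 had 0.195 to 0.268 times those of RP11-1275H24.3. RP11-192H23.4 itself had DCC-IP counts of 1506, 2858 and 2499, Nrp1-IP counts of 1074, 1498 and 1599 and Input counts of 983, 1096 and 756, so the pair kept its ratio while the counts of its members varied. Whether the members of such a pair share one transcript was not tested.

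RP11-513M16.7 and RP11-513M16.8 parted by group in their counts. Neither was called in any comparison, and their ratio was not tested. RP11-513M16.8 had DCC-IP counts of 483, 576 and 572, Nrp1-IP counts of 136, 226 and 261 and Input counts of 281, 315 and 222. RP11-513M16.7 had 83, 56 and 151, then 199, 289 and 301, then 530, 340 and 220. The first was above the second in every DCC-IP library and below it in every Nrp1-IP library, with ratios of RP11-513M16.7 to RP11-513M16.8 from 0.0972 to 0.264 in DCC-IP and 1.15 to 1.46 in Nrp1-IP. In RP11-715J22.4 and RP11-715J22.3 the ratio followed the replicate number instead, at 4.60, 3.29 and 2.95 in replicate 3 of DCC-IP, Nrp1-IP and Input and between 0.225 and 1.20 in the other 6 libraries.

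**Figure D5:**
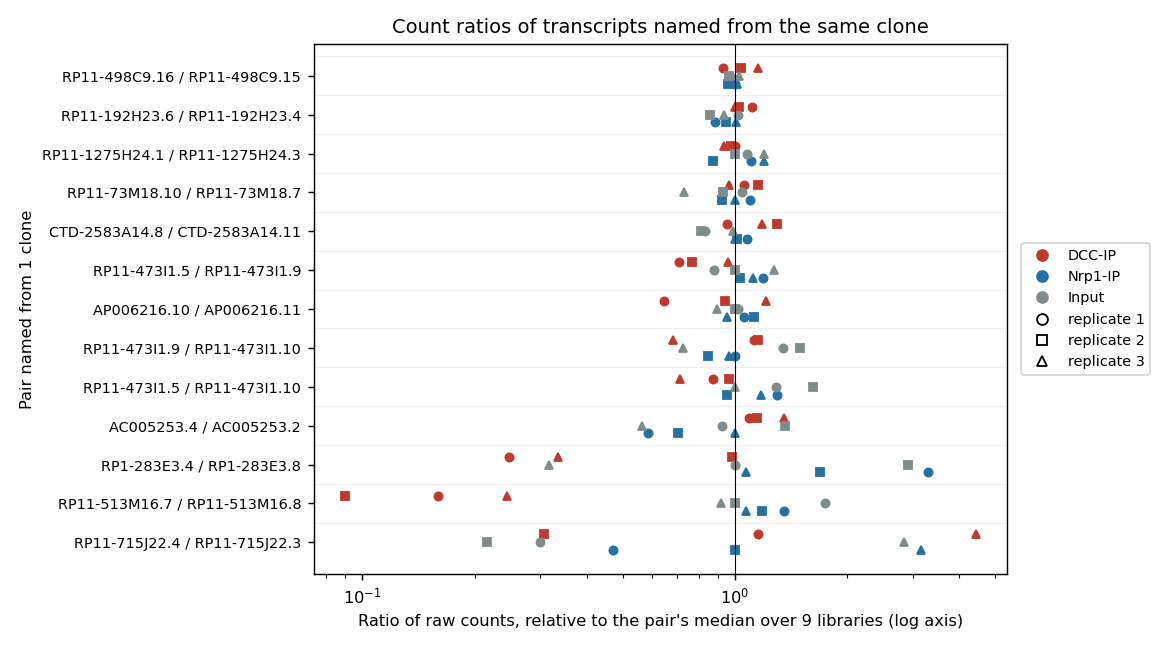
Ratio of the raw counts of 2 transcripts named from the same clone, divided by the pair's median over 9 libraries (x axis, log axis), for the 13 pairs. Points are libraries, with colour for the group and shape for the replicate number. RP11-498C9.16 over RP11-498C9.15 spans 1.23 times from lowest to highest, and the 3 pairs at the bottom span 13.3, 19.4 and 20.4 times.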

How the data were processed

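RNA was sequenced from 9 SH-SY5Y samples, 3 each of DCC-IP, Nrp1-IP and Input. The deposited values are raw counts per gene symbol, which the authors made with HISAT2 2.1.0 and HTSeq 0.11.0; the submitters' processing notes name hg19. The annotation and strand setting are not given in the sources used here. The 5 HTSeq summary lines were left out of gene counts. Depth was 8838296 to 11055895 gene counts, so 3 counts are 0.271 to 0.339 CPM.

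The members, lists and rules were chosen with earlier results of these data known. Members had at least 100 counts in 6 of 9 libraries. Named were the 12 with the most CPM, up to 8 called per comparison and direction with the smallest p, those next to the cut and those sharing a clone. Among them 2 are described without their symbols.

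Comparisons used edgeR 4.0.16 in R 4.3.3 (filterByExpr with minimum count 10, TMM, glmQLFit and glmQLFTest) on the 6 libraries concerned, with Benjamini-Hochberg adjustment at 0.05 over all genes tested. SE is the size of the log2 fold change over the square root of F. Fits were tested on simulated data. Alternatives were DESeq2 1.42.0, RLE factors, library size only, MAP1B removed, no filter, 10 counts in every library, all 9 libraries together, a replicate block, other cuts, and each library left out.

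Pairing was checked by correlating deviations from group means over 7628 genes. Same-numbered DCC-IP and Input libraries gave r = 0.117, 0.187 and 0.421, all over 0.1, so the blocked counts stand beside that comparison. Input replicate 1 correlated better with DCC-IP replicate 2 (r = 0.136) than with DCC-IP replicate 1, so the pairing is not certain.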

Additional observations from a re-analysis of the deposited data

How the results depend on the processing

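No called value of a transcript named by the rule changed sign under any alternative run. Of these 31 called values 6, all of Nrp1-IP over DCC-IP, passed under every one. The called transcripts named after their values were seen are outside these 31. Counts of calls moved, and the cause was not tested. Members higher and lower in Nrp1-IP over DCC-IP, then in DCC-IP over Input, then in Nrp1-IP over Input, were as follows. The numbers above were 14 and 2, 1 and 10, and 2 and 6. DESeq2 gave 41 and 10, 8 and 39, and 6 and 22. RLE size factors gave 17 and 1, 0 and 8, and 1 and 11. Library size only gave 23 and 1, 4 and 7, and 14 and 3. MAP1B removed gave 25 and 1, 0 and 2, and 2 and 6. No filter gave 28 and 5, 3 and 7, and 8 and 16. At least 10 counts in every library tested 177, 177 and 194 members and gave 37 and 7, 13 and 33, and 8 and 15. All 9 libraries in 1 fit gave 21 and 1, 6 and 43, and 0 and 2, with 28 members at an unadjusted p under 0.05 in the last. Where 0 were higher in DCC-IP over Input, RLE left 70 members and MAP1B removed 54 at an unadjusted p under 0.05. With 100 counts in all 9 libraries, DCC-IP over Input had 0 higher, RP11-77H9.5 being outside that cut.

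The replicate block gave 26 and 5, 7 and 43, and 9 and 13. For DCC-IP with Nrp1-IP the same-numbered libraries had r = 0.0989, 0.113 and 0.361 and for Nrp1-IP with Input 0.215, -0.00436 and 0.365, so not every r was over 0.1 and these were not taken as pairs. In the former every library correlated best with its own number, and in the latter replicate 2 of neither group did.

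Leaving out 1 library gave 6 to 28 higher and 0 to 3 lower in Nrp1-IP over DCC-IP, 0 to 3 and 0 to 11 in DCC-IP over Input, and 0 to 3 and 0 to 18 in Nrp1-IP over Input. Members at 3 counts or fewer in DCC-IP replicate 1 are at the limit of depth there.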
